A study of Homo sapiens with 18 samples.

Results

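The comparison described here asks how AceTAGPCAFGCN5-4, a compound named for the acetyltransferases PCAF and GCN5, altered the transcriptome of H1299 cells in which a tagged p53 had been induced. Its members are the 3 libraries of induced cells given this compound and the 3 libraries of induced cells given DMSO, 6 of the 18 libraries of the series, picked by their labels. H1299 is a non-small cell lung cancer line known for the loss of its own p53. The line used carries a doxycycline-inducible wild-type p53 joined to FKBP12F36V, a modified immunophilin domain that serves as a handle for the compounds, and an HA tag. AceTAG compounds are heterobifunctional: one end holds the tag, the other an acetyltransferase.

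The groups used are induced cells with the PCAF/GCN5 compound, induced cells with AceTAGp300CBP-1 (the p300/CBP compound), induced cells with DMSO, non-induced cells with the PCAF/GCN5 compound and non-induced cells with DMSO, with 3 libraries each and all at 24 h. All induced groups, DMSO included, carry the tagged p53, which comes from an added construct and not from the gene's own promoter. The labelled protocol has plating 24 h ahead of the compounds, with doxycycline added first. Neither the dose nor the handling of non-induced cells with doxycycline is stated there. The labels also do not say whether the 3 libraries of a group came from separate cultures, so p-values measure the spread between these libraries, which may be technical.

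p53 is a transcription factor that binds DNA as a tetramer and switches on genes for cell cycle arrest, cell death, DNA repair, metabolism and its own degradation. Acetylation of its lysines by p300, CBP, PCAF (KAT2B) and GCN5 (KAT2A) is a known layer of control on its activity. PCAF and GCN5 are the alternative catalytic subunits of the SAGA and ATAC coactivator complexes.

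Library totals in induced cells were 29.2, 19.8 and 22.5 M counts with the PCAF/GCN5 compound and 24.9, 22.4 and 23.6 M with DMSO. A count of 0 allows a level of up to 0.103 to 0.151 CPM (counts scaled to the library total) with the compound and 0.120 to 0.134 CPM with DMSO, for counting error only. The third DMSO library stood apart before any test: 204 genes differed more than 2-fold from the mean of its partners, against 17 to 73 genes in the other 5 libraries. Its share of mitochondrially encoded transcripts was 0.714%, against 2.45, 1.88 and 1.39% with the compound and 1.84 and 2.14% in the other DMSO libraries. The second compound library came next, with 73 such genes. Counts of calls by gene list are therefore given with and without the third DMSO library where they differ. Mesenchymal markers (VIM, CDH2, FN1) summed to 2667 to 2921 CPM with the compound and 2441 to 2924 CPM with DMSO. Of 9 lung and epithelial markers, 6 stayed below 1 CPM in either group, and 1 had no count, so the lung origin of the line is barely visible in its RNA. This list summed to 274 to 299 CPM with the compound and 324 to 408 CPM with DMSO, ranges that do not overlap, and its part in the results was not tested. Of 11 markers of blood, endothelial and stromal cells 3 had no count, and the sum reached no more than 2.62 CPM with the compound and 2.76 CPM with DMSO.

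**Figure D1:**
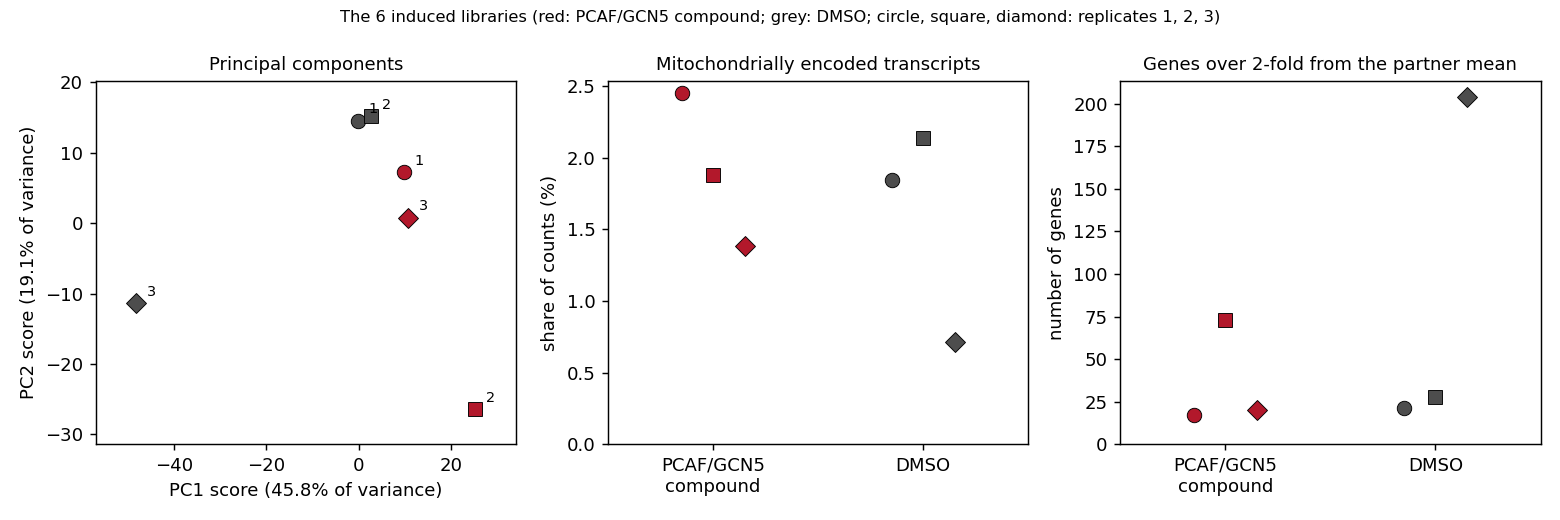
The 6 induced libraries, with the PCAF/GCN5 compound in red and DMSO in grey: scores on principal components 1 and 2 of log2 levels (left), share of counts on mitochondrially encoded transcripts in percent (middle) and number of genes over 2-fold from the partner mean (right). The third DMSO library lies alone at -48.1 on the first component, which holds 45.8% of the variance, has the lowest mitochondrial share (0.714%) and the most deviating genes (204).

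With the PCAF/GCN5 compound, induced cells held more RNA of 51 genes and less of 1, ANGPTL4. Of the 52 genes 21 stand on lists of p53 targets: CDKN1A, which encodes an inhibitor of cyclin-dependent kinases, rose by 1.20 on the log2 scale and TP53I11 by 2.93. The death receptors FAS and TNFRSF10B, the repair polymerase POLH and the phospholipid transfer gene PLTP rose too, and so did genes that stand on no p53 list, among them the repressor HES2 and the axon guidance genes PLXNB3 and DRAXIN. Genes of S phase, mitosis and ribosome biogenesis lay slightly below DMSO, with no member past the threshold. Subunits of the acetyltransferase complexes did not pass it either.

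In numbers, 52 of 15078 genes tested passed an adjusted p of 0.05 (0.345%) in edgeR's quasi-likelihood test with Benjamini-Hochberg adjustment, used throughout. Of these 51 rose (0.338%) and 1 fell (0.00663%), and 1530 genes had an unadjusted p below 0.05. Without the third DMSO library 114 of 15352 genes passed (0.743%), of which 110 rose (0.717%) and 4 fell (0.0261%), and all 52 were among them. The median log2 fold change of the genes that rose was 1.29, and the smallest was 0.50. Of the 52 genes, 21 stand on one of 5 lists of p53 targets and 31 do not. Of 114 p53 list members tested, 21 rose and none fell, with a median log2 fold change of 0.28 beside -0.0069 over all genes tested. These and all other gene lists were chosen with earlier results of these data known, so counts by list describe and do not test. At an unadjusted p below 0.05, 61 p53 list members were higher and 5 lower, and DESeq2 called 34 higher and 1 lower. In induced DMSO cells, 37 of the 52 genes already had a higher level in each library than in any non-induced DMSO library, as did 21.5% of all genes tested.

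The authors' deposited table for this comparison, with its sign turned to compound over DMSO, holds 11237 genes with an adjusted p, of which 1223 passed 0.05 (10.9%), 420 higher (3.74%) and 803 lower (7.15%). Of the 52 genes called here, 31 passed in the authors' deposited table and 21 had no adjusted p there. Of 100 p53 list members with an adjusted p in the authors' deposited table, 55 were higher and 5 lower. Of 39 S phase genes 20 were lower in the authors' deposited table, and of 34 mitosis genes 13 were lower, against 0 of either list in edgeR. The settings and libraries behind the authors' model are not given in the sources used here. The mean level listed in the authors' deposited table, up to 1 common factor, lay within 10% of the scaled mean of its 6 libraries in only 54.1% of 10941 genes with a listed mean over 100, so its calls cannot be read as calls on these 6 libraries alone. The largest count among the fits run here was 541, with no filter on low counts, and the reason for the gap to 1223 was not tested.

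**Figure D2:**
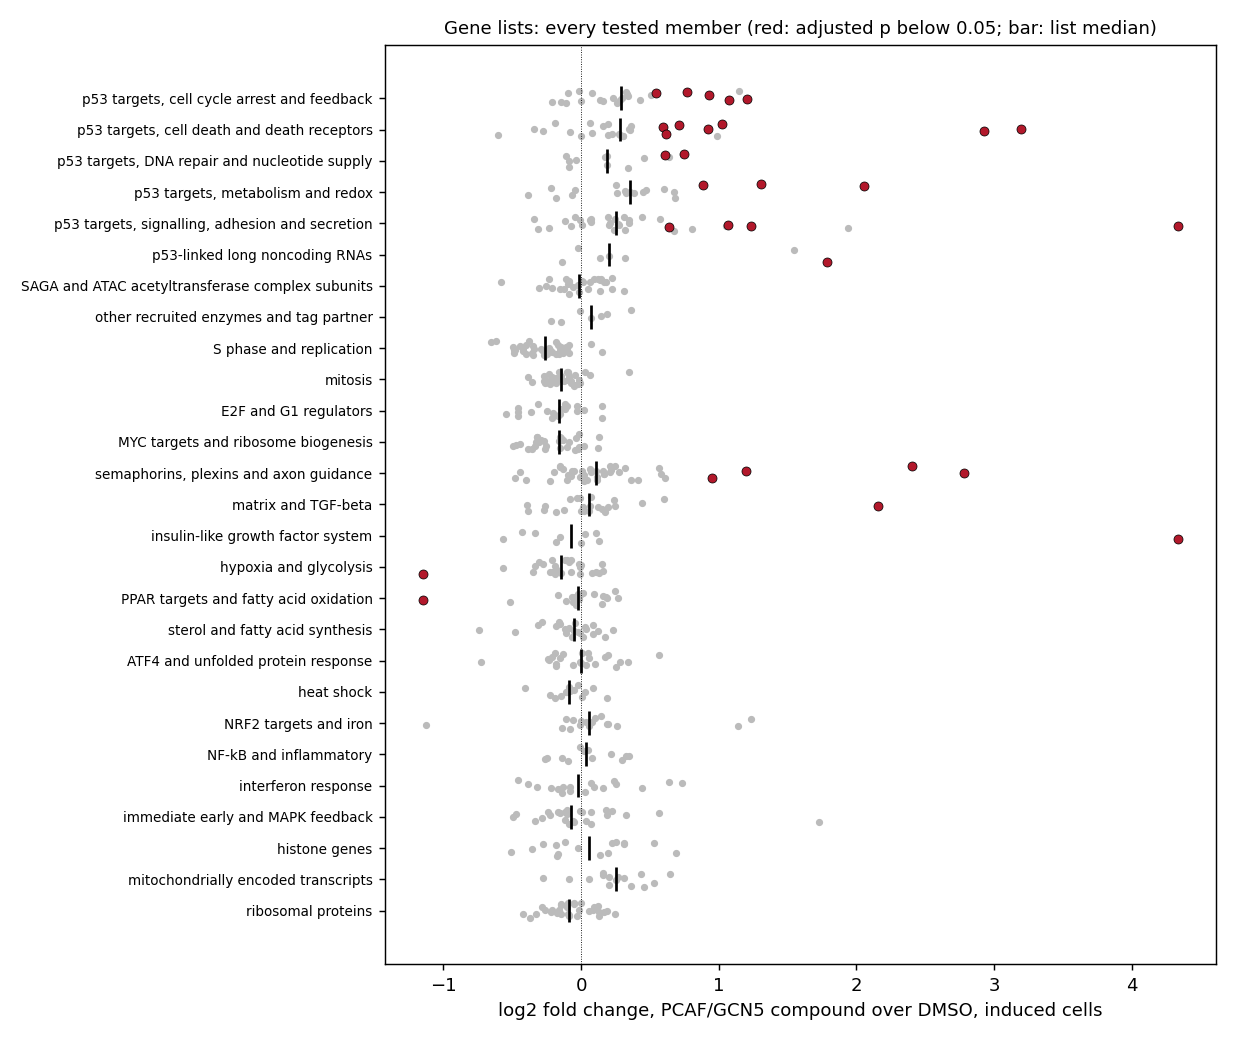
Log2 fold change (PCAF/GCN5 compound over DMSO, induced cells) of every tested member of each gene list, with genes at an adjusted p below 0.05 in red and the list median as a black bar. The 5 p53 target lists have medians between 0.19 and 0.36 and hold 21 red points, whereas S phase and replication genes have a median of -0.26 and no red point.

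Of the 24 tested genes of arrest and feedback, 5 rose and none fell (median log2 fold change 0.29), and 9 rose without the third DMSO library. CDKN1A, which encodes p21, had 829, 806 and 859 CPM with the compound, against 380, 332 and 343 CPM with DMSO. The groups are far apart, and the log2 fold change was 1.20 ± 0.08 (SE, edgeR adjusted p = 0.00027). BTG2, an antiproliferative cofactor of mRNA decay, had 59.3, 59.6 and 62.3 CPM with the compound, against 29.2, 28.7 and 25.8 CPM with DMSO (log2 fold change 1.08 ± 0.09, edgeR adjusted p = 0.00037). Its compound libraries differ from each other by less than their distance to any DMSO library. ZMAT3, an RNA-binding protein that acts in splicing, had 92.6, 109 and 113 CPM with the compound, against 51.6, 58.4 and 50.5 CPM with DMSO (log2 fold change 0.93 ± 0.10, edgeR adjusted p = 0.0014). The sestrin SESN1, which restrains growth signalling, had 58.1, 72.6 and 62.3 CPM with the compound, against 36.4, 39.8 and 33.9 CPM with DMSO (0.77 ± 0.10, edgeR adjusted p = 0.0088). The second compound library is the highest for SESN1, and all 3 exceed DMSO. The polo-like kinase PLK2 changed least among the 5, at 47.4, 48.3 and 46.3 CPM with the compound, against 32.5, 34.2 and 28.5 CPM with DMSO (0.54 ± 0.09, edgeR adjusted p = 0.046). MDM2, the ubiquitin ligase that degrades p53, did not pass. It had 648, 776 and 833 CPM with the compound, against 569, 605 and 571 CPM with DMSO (log2 fold change 0.33 ± 0.10, edgeR adjusted p = 0.39), with a wide spread among compound libraries and no overlap. The authors' deposited table, whose calls cannot be read as calls on these 6 libraries alone, has MDM2 higher (DESeq2 adjusted p = 0.000159).

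Promoter windows were searched for the p53 consensus decamer, a known 10-letter element that reads the same on both strands. RefSeq promoter windows (GRCh38.p14, 250 bases before to 50 after a gene start) were at hand for 41 of the 52 genes, and 10 of these 41 (24.4%) held the decamer in a window, as did 8.06% of the 27305 genes in the whole table. Counted by window, these were 11 of 68 and 2329 of 35116 (6.63%). The whole table is not limited to the genes tested here, and called genes had more windows each, so the shares are not like for like. Their difference was not tested. A pair of decamers at most 13 bases apart, the full element, stood in 10 windows of the table, and 1 of them belongs to a called gene, PTCHD4. A match describes letters only, and p53 elements are also known in introns and far from genes. The windows of 5 of the 10 genes are shown: PTCHD4 for its full element, FAS because its decamer also lies in the window of ACTA2, and SESN1, PLK2 and ABHD4 as examples from the p53 lists. They are PTCHD4 (chr6:48111148-48111447, minus strand), FAS (chr10:88991181-88991480, plus strand), SESN1 (chr6:109008939-109009238, minus strand), PLK2 (chr5:58460037-58460336, minus strand) and ABHD4 (chr14:22598050-22598349, plus strand). Capitals mark the decamer.
PTCHD4: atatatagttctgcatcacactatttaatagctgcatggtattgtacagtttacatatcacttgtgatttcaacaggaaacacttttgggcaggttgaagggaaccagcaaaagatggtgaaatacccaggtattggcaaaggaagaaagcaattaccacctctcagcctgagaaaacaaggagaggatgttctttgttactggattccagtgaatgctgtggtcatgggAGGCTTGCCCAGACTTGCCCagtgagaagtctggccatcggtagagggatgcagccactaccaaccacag
FAS: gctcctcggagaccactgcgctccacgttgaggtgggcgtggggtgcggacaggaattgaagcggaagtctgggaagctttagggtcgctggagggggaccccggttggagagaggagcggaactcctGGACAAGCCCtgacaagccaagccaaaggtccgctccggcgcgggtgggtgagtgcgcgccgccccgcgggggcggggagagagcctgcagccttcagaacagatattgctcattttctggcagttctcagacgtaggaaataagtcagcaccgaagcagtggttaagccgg
SESN1: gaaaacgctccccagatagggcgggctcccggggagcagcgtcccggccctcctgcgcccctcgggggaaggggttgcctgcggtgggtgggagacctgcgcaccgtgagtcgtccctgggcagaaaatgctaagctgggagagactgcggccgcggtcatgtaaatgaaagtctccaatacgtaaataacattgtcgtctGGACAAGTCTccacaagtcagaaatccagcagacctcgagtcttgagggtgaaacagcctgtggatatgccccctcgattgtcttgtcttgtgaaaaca
PLK2: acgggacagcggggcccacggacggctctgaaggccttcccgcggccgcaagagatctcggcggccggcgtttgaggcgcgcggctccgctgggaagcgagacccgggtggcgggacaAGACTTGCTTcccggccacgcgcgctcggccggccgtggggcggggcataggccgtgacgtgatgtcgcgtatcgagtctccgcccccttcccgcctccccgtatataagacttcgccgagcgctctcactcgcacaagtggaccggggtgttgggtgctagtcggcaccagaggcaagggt
ABHD4: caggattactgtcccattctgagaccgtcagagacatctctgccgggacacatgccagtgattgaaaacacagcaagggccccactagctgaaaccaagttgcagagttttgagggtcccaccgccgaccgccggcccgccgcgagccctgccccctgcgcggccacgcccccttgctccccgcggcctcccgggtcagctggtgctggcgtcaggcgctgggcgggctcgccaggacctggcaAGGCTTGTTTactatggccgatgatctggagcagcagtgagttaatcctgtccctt
In PTCHD4 the decamers are adjacent and start 20 and 10 bases before the gene start. The decamer of SESN1 starts 49 bases, that of PLK2 132 bases and that of ABHD4 6 bases before the start. In FAS it starts 122 bases before the start, and the same 10 bases (chr10:88991309-88991318) lie in the window of ACTA2, which is read from the opposite strand and also rose.

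Of the 27 tested genes of cell death and death receptors, 7 rose and none fell (median log2 fold change 0.28), and without the third DMSO library 11 rose and 1 fell. TP53I11, a p53-inducible gene, changed with the smallest p of all genes: 27.4, 26 and 27.1 CPM with the compound, against 3.61, 3.39 and 3.31 CPM with DMSO. The libraries of each group are nearly equal, and the log2 fold change was 2.93 ± 0.12 (edgeR adjusted p = 2.5e-06). SEPTIN4, whose isoform ARTS promotes apoptosis, was low in DMSO cells: it had 2.19, 2.92 and 3.02 CPM with the compound, against 0.241, 0.223 and 0.382 CPM with DMSO (log2 fold change 3.20 ± 0.33, edgeR adjusted p = 0.0015). TP53I3, a quinone oxidoreductase tied to oxidative stress, had 160, 153 and 178 CPM with the compound, against 84.3, 76.7 and 74.1 CPM with DMSO (1.03 ± 0.08, edgeR adjusted p = 0.00038). CYFIP2, a subunit of the WAVE actin complex, had 260, 263 and 258 CPM with the compound, against 137, 141 and 123 CPM with DMSO (0.92 ± 0.07, edgeR adjusted p = 0.00037). Both genes stand well above DMSO in all compound libraries.

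Of the death receptors named here 3 rose and 2 did not pass. FAS had 39.3, 49.1 and 45.1 CPM with the compound, against 26.4, 28.6 and 24.5 CPM with DMSO (log2 fold change 0.71 ± 0.11, edgeR adjusted p = 0.02). TNFRSF10B, the TRAIL receptor DR5, had 231, 249 and 273 CPM with the compound, against 171, 159 and 154 CPM with DMSO (0.60 ± 0.08, edgeR adjusted p = 0.0088). The decoy receptor TNFRSF10D had 121, 130 and 126 CPM with the compound, against 84.2, 85.5 and 69.6 CPM with DMSO (0.62 ± 0.09, edgeR adjusted p = 0.013). The lowest compound library exceeded the highest DMSO library for these 3. None of them passed when compound library 2 was left out, nor when compound library 3 was. TNFRSF10A, the TRAIL receptor DR4, did not pass, at 51.7, 49.7 and 52.1 CPM with the compound, against 43.5, 46.1 and 51.6 CPM with DMSO (log2 fold change 0.08), and neither did the decoy receptor TNFRSF10C, which stayed below 1 CPM in all 6 libraries (-0.08). For both the groups overlap. The mitochondrial death effectors did not pass the test. BBC3 (PUMA) had 18.4, 12.9 and 17.1 CPM with the compound, against 16.3, 13.7 and 15.1 CPM with DMSO (0.07 ± 0.15, edgeR adjusted p = 0.88). BAX had 132, 96.4 and 130 CPM with the compound, against 103, 95.9 and 114 CPM with DMSO (0.16 ± 0.13, edgeR adjusted p = 0.65). For both the groups overlap.

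Of 12 tested genes of DNA repair and nucleotide supply, 2 rose and none fell, and 4 rose without the third DMSO library. POLH, the translesion polymerase eta, had 64.6, 72.3 and 67.1 CPM with the compound, against 40.6, 42.2 and 35.7 CPM with DMSO (log2 fold change 0.75 ± 0.09, edgeR adjusted p = 0.0047). RRM2B, the p53-inducible subunit of ribonucleotide reductase, had 277, 339 and 301 CPM with the compound, against 198, 204 and 185 CPM with DMSO (0.61 ± 0.09, edgeR adjusted p = 0.013). All compound libraries lay above all DMSO libraries for both.

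Of 19 tested genes of metabolism and redox, 3 rose and none fell (median log2 fold change 0.36), and 8 rose without the third DMSO library. PLTP, which transfers phospholipids between lipoproteins, had 68.4, 65.6 and 60.4 CPM with the compound, against 26.1, 26.7 and 24.0 CPM with DMSO (log2 fold change 1.31 ± 0.09, edgeR adjusted p = 0.00027). GLS2, the mitochondrial glutaminase, had 7.30, 6.56 and 7.21 CPM with the compound, against 2.17, 1.38 and 1.36 CPM with DMSO (2.06 ± 0.21, edgeR adjusted p = 0.0013). The first DMSO library is the highest of its group, still below every compound library. ABHD4, a lipid hydrolase with a decamer 6 bases before its start, had 42.9, 48.5 and 43.0 CPM with the compound, against 25.8, 24.4 and 20.8 CPM with DMSO (0.88 ± 0.11, edgeR adjusted p = 0.0043). The rise is similar in the 3 compound libraries.

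Of 32 tested genes of signalling, adhesion and secretion, 4 rose and none fell, and 7 rose without the third DMSO library. IGFBP3, which binds and carries insulin-like growth factors, had 11.8, 17.6 and 12.3 CPM with the compound, against 0.482, 1.20 and 0.339 CPM with DMSO (log2 fold change 4.33 ± 0.33, edgeR adjusted p = 0.00035). The second library is the highest in both groups. It was also the only 1 of 10 tested genes of the insulin-like growth factor system past the threshold. ACTA2, smooth muscle actin, had 50.6, 50.9 and 55.6 CPM with the compound, against 26.5, 24.8 and 21.9 CPM with DMSO (1.07 ± 0.10, edgeR adjusted p = 0.00058). ACTA2 and FAS overlap on opposite strands of chromosome 10 in the deposited positions, and whether reads were counted by strand is not given in the sources used here, so their shared reads are uncertain. KITLG, the ligand of the receptor KIT, had 7.89, 12.1 and 9.16 CPM with the compound, against 4.98, 3.88 and 3.14 CPM with DMSO (1.23 ± 0.21, edgeR adjusted p = 0.04). EPS8L2, an actin regulator, had 37.0, 32.9 and 37.8 CPM with the compound, against 22.8, 22.7 and 21.8 CPM with DMSO (0.64 ± 0.10, edgeR adjusted p = 0.021). Neither gene's groups overlap. Among 7 tested p53-linked noncoding RNAs 1 passed, MIR34AHG, the host transcript of the microRNA miR-34a, with 3.29, 2.77 and 4.23 CPM with the compound, against 1.33, 0.981 and 0.594 CPM with DMSO (1.78 ± 0.30, edgeR adjusted p = 0.04).

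**Figure D3:**
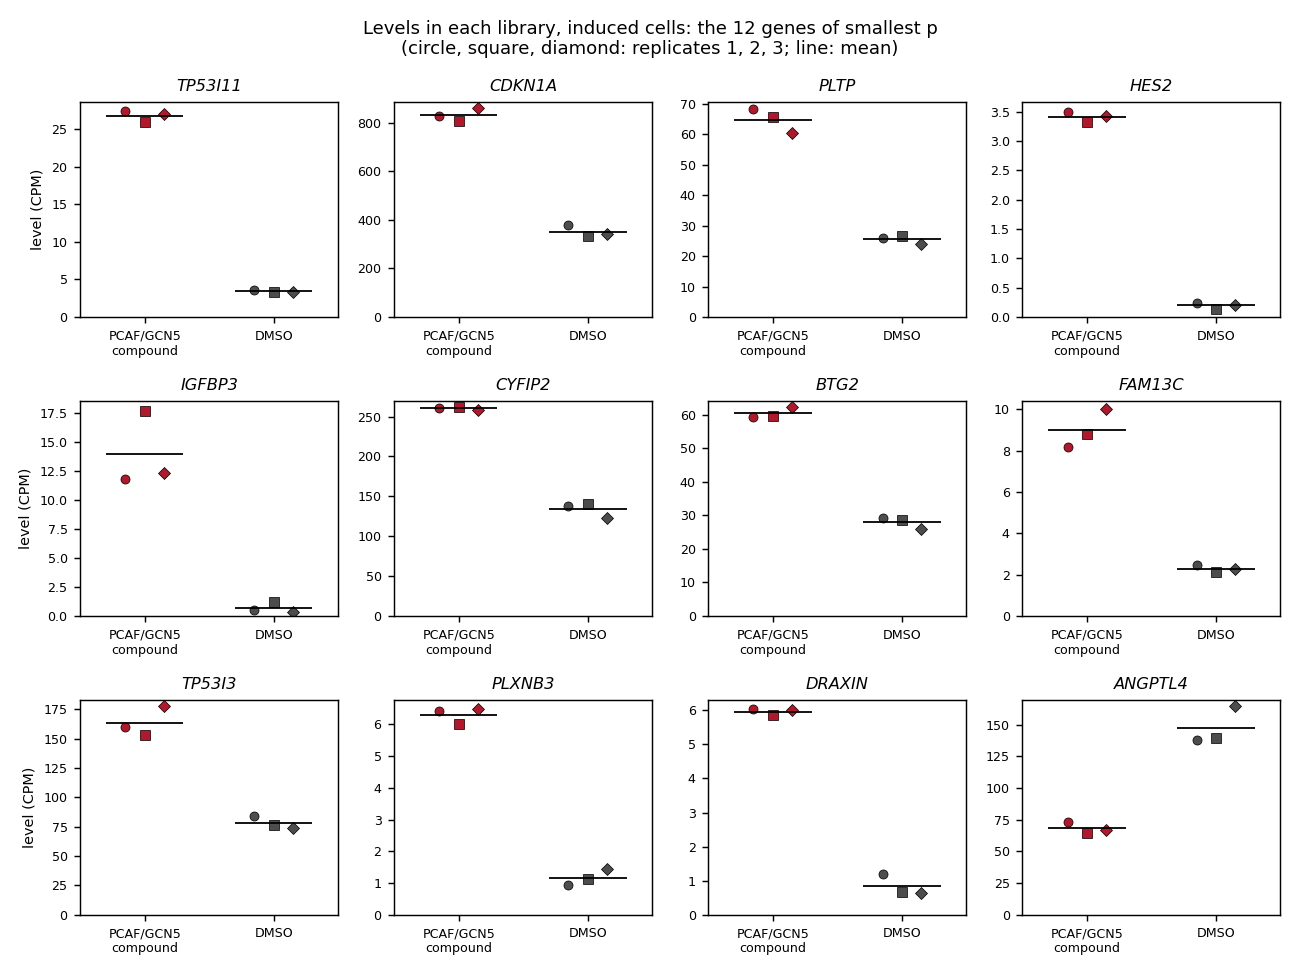
Level in CPM (vertical axes, from 0) of the 12 genes of smallest p in each induced library, with the PCAF/GCN5 compound left in red and DMSO right in grey; lines are means of 3 libraries. The compound libraries lie above DMSO for 11 genes, such as CDKN1A at 806 to 859 against 332 to 380 CPM, and below it for ANGPTL4, at 64.9 to 73.2 against 138 to 165 CPM.

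Outside the p53 lists, 4 of 41 tested genes of semaphorins, plexins and axon guidance rose and none fell, beside 0.338% of all genes, and 5 rose without the third DMSO library. This list was chosen with earlier results of these data known, so its share is no test of a theme. PLXNB3, a plexin receptor, had 6.41, 6.00 and 6.49 CPM with the compound, against 0.924, 1.12 and 1.44 CPM with DMSO (log2 fold change 2.40 ± 0.21, edgeR adjusted p = 0.00051). DRAXIN, a secreted axon repellent, had 6.03, 5.85 and 6.01 CPM with the compound, against 1.20, 0.669 and 0.636 CPM with DMSO (2.78 ± 0.24, edgeR adjusted p = 0.00051). Both were almost level across the compound libraries. DPYSL4, a collapsin response mediator, had 15.6, 15.2 and 18 CPM with the compound, against 7.43, 7.14 and 6.11 CPM with DMSO (1.20 ± 0.13, edgeR adjusted p = 0.0018). NTN1, the guidance cue netrin-1, had 23.5, 21.2 and 27.3 CPM with the compound, against 11.4, 12.8 and 12.2 CPM with DMSO (0.95 ± 0.12, edgeR adjusted p = 0.0073). Each compound library was above each DMSO library in both. VCAN, a matrix proteoglycan and 1 of 25 tested matrix and TGF-beta genes past the threshold, had 12.8, 13.9 and 12.2 CPM with the compound, against 3.33, 3.43 and 1.74 CPM with DMSO (2.16 ± 0.21, edgeR adjusted p = 0.0012). The third DMSO library is the lowest, and without it the log2 fold change was 1.91.

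Several of the largest log2 fold changes were in genes with little RNA in DMSO cells. Such genes can meet the filter on low counts through the compound libraries alone, which leaves a rise as the only change to call. HES2, a transcriptional repressor of the HES family, had 3.50, 3.33 and 3.43 CPM with the compound, against 0.241, 0.134 and 0.212 CPM with DMSO (log2 fold change 4.04 ± 0.30, edgeR adjusted p = 0.00035). Every compound library was several-fold above DMSO. NSG1, a protein of neuronal endosomes, had 4.97, 7.82 and 8.14 CPM with the compound, against 0.884, 0.491 and 0.848 CPM with DMSO (3.17 ± 0.28, edgeR adjusted p = 0.00051). PTCHD4, a Patched-related membrane protein with the full p53 element before its start, had 5.11, 4.89 and 5.03 CPM with the compound, against 1.29, 0.937 and 0.636 CPM with DMSO (2.35 ± 0.24, edgeR adjusted p = 0.0015). FAM13C had 8.16, 8.82 and 10.0 CPM with the compound, against 2.45, 2.14 and 2.25 CPM with DMSO (1.94 ± 0.16, edgeR adjusted p = 0.00038). The first compound library is the lowest for NSG1 and FAM13C, and no library crosses between groups.

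Some genes were close to silent with DMSO, so counts are given in place of folds. LCE1C, of the late cornified envelope, had 38, 50 and 40 counts with the compound, against 0, 1 and 0 counts with DMSO. ANGPT4, an angiopoietin, had 23, 24 and 14 counts with the compound, against 1, 1 and 0 counts with DMSO. The antisense RNA ENSG00000265907 had 27, 22 and 11 counts with the compound, against 1, 1 and 0 counts with DMSO. All passed the test (edgeR adjusted p = 0.0018 for LCE1C, 0.02 for ANGPT4 and 0.027 for ENSG00000265907). INPP5D, the inositol phosphatase SHIP1, had 35, 26 and 32 counts with the compound, against 2, 1 and 2 counts with DMSO (edgeR adjusted p = 0.0026). With so few counts in DMSO cells, these genes met the filter on low counts only through the compound libraries. A rise was thus the only change open to them, and their adjusted p should be read with that limit.

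The other 15 genes outside the p53 lists that rose had edgeR adjusted p between 0.0062 and 0.049. RNF144B, a ubiquitin ligase, rose by 2.27 on the log2 scale. CLCA2, a chloride channel regulator, rose by 2.60, and ABCG2, a drug efflux transporter, by 2.55. ADAMTS7, a secreted protease, rose by 1.81, PLEKHG1 by 1.65, and PDE3A, a phosphodiesterase, by 1.60. ACHE, acetylcholinesterase, rose by 1.36 and the noncoding LINC00324 by 1.29. ZNF385A, a zinc finger protein known to bind p53, rose by 1.18, LPIN3, a lipin, by 1.12, SCN3B, a sodium channel subunit, by 1.08, and the noncoding FLJ36000 by 1.05. NOTCH3, a Notch receptor, rose by 1.02, PLCXD2 by 0.88 and MYO6, a motor protein, by 0.50. CLCA2 had no count in any non-induced library, with the compound or with DMSO. Its levels were 3.43, 3.43 and 2.98 CPM with the compound, against 0.402, 0.312 and 0.848 CPM with DMSO, highest among DMSO libraries in the third.

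ANGPTL4 was the 1 gene that fell. It encodes a secreted inhibitor of lipoprotein lipase and is a known target of PPAR factors and of hypoxia. It had 73.2, 64.9 and 66.5 CPM with the compound, against 138, 140 and 165 CPM with DMSO (log2 fold change -1.15 ± 0.10, edgeR adjusted p = 0.00051). The groups are well apart, and without the third DMSO library the value was -1.05. The other members of its lists did not follow past the threshold: 1 of 29 tested hypoxia and glycolysis genes and 1 of 20 tested PPAR genes fell, ANGPTL4 in both, with list medians of -0.14 and -0.02.

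Of 29 tested SAGA and ATAC subunits none passed (median -0.02; unadjusted p below 0.05 for 1 higher and 1 lower; no call by DESeq2). In edgeR with all 6 groups in 1 fit 1 subunit was called higher, and the authors' deposited table calls 1 higher and 1 lower, with an adjusted p of 0.00369 for KAT2B. KAT2B (PCAF) had 133, 148 and 139 CPM with the compound, against 120, 119 and 91.4 CPM with DMSO (0.31 ± 0.10, edgeR adjusted p = 0.45). KAT2A (GCN5) had 38.3, 34.9 and 37.3 CPM with the compound, against 37.1, 36.5 and 42.9 CPM with DMSO (-0.11 ± 0.10, edgeR adjusted p = 0.69). KAT2A overlaps between groups and KAT2B does not. The log2 fold changes of EP300, CREBBP and FKBP1A, which encodes the FKBP12 that the tag derives from, were 0.19, 0.15 and 0.08, with edgeR adjusted p between 0.63 and 0.73.

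Proliferation genes lay below DMSO by small amounts. None of 39 tested S phase and replication genes passed in edgeR, but 20 had an unadjusted p below 0.05 and lower levels with the compound, none higher. Over all genes tested, 1530 of 15078 had such a p in either direction. DESeq2 called 3 S phase genes as lower, and edgeR with all 6 groups in 1 fit called 10. The list median was -0.26, and 2 members had a positive value. GINS2, a subunit of the replicative helicase, had 29.7, 32.3 and 27.2 CPM with the compound, against 38.3, 42.7 and 52.3 CPM with DMSO (log2 fold change -0.62 ± 0.13, edgeR adjusted p = 0.15). FEN1, the flap endonuclease, had 34.7, 37.6 and 34.7 CPM with the compound, against 47.3, 45.6 and 70.7 CPM with DMSO (-0.65 ± 0.16, edgeR adjusted p = 0.27). In both the third DMSO library is the highest. Without it both passed, at -0.47 (edgeR adjusted p = 0.032) and -0.41 (edgeR adjusted p = 0.029). Mitosis genes had a median of -0.14 (0 of 35 called; 12 lower at an unadjusted p below 0.05, 0 by DESeq2 or with all 6 groups). E2F and G1 regulators had a median of -0.16 (0 of 20 called; 6 lower at an unadjusted p below 0.05, 0 by DESeq2, 3 with all 6 groups). MYC targets and ribosome biogenesis genes also had a median of -0.16 (0 of 29 called; 12 lower at an unadjusted p below 0.05, 1 by DESeq2, 5 with all 6 groups).

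Leaving out the third DMSO library added 62 calls, 59 higher and 3 lower, and 19 of them stand on p53 lists. On simulated data, where no library was made to stand apart, false calls exceeded the nominal share in this fit and in the others. The p53 count became 39 of 114 rising and 1 falling, with a median of 0.31. FDXR, a mitochondrial reductase, had 250, 211 and 253 CPM with the compound, against 153, 141 and 249 CPM with DMSO. The third DMSO library sits with the compound libraries. The log2 fold change was 0.36 (edgeR adjusted p = 0.53) with it and 0.68 (edgeR adjusted p = 0.00045) without it. PIDD1, a scaffold of the caspase-2 complex, had 19.95, 20.9 and 20.7 CPM with the compound, against 12.7, 13.2 and 22.4 CPM with DMSO, with the same pattern. GDF15, a secreted stress cytokine, had 39.2, 35.4 and 38.5 CPM with the compound, against 21, 16.6 and 25.3 CPM with DMSO (0.98 without the third library, edgeR adjusted p = 0.00019). Its groups do not overlap with or without that library. PMAIP1 (NOXA), a BH3-only death protein, was the 1 p53 list member that fell: 49.4, 55.5 and 53.7 CPM with the compound, against 74.4, 68.5 and 91.1 CPM with DMSO (-0.46 without the third library, edgeR adjusted p = 0.0079). EPHB4, an ephrin receptor, and JAG2, a Notch ligand, had the smallest p of the additional genes off the p53 lists, with log2 fold changes of 0.76 and 0.82. Next by p came APOBEC3C at 0.53, TM7SF2 at 0.47 and GLIPR2 at 0.82.

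In non-induced cells the compound moved few genes: 3 of 15100 tested passed (0.0199%), SAP18 higher (0.00662%) and BOLA2B and RPLP2 lower (0.0132%), and 959 had an unadjusted p below 0.05. These libraries are separate from the induced ones, and the third non-induced DMSO library is shallower, with 9.1 M counts against 24.3 to 26.6 M in the other 5 (without it edgeR called 0 genes, and 588 had an unadjusted p below 0.05). Of the 52 genes, 37 were measured well enough to be tested there and none passed in edgeR (2 higher and none lower at an unadjusted p below 0.05, none by DESeq2). Their log2 fold changes ran from -0.47 to 0.84 with a median of 0.06. CDKN1A had 87.0, 92.6 and 97.9 CPM with the compound, against 91.3, 91.8 and 85.7 CPM with DMSO in non-induced cells. TP53I3 had 25, 20.02 and 23.4 CPM with the compound, against 21.1, 20.9 and 20.3 CPM with DMSO there. Both overlap between groups without induction. ANGPTL4, lower in induced cells, had 45.9, 42.0 and 41.0 CPM with the compound, against 39.8, 37.9 and 34.6 CPM with DMSO without induction. The p53 lists had a median of 0.02 there, with none of 108 tested members called in edgeR or DESeq2. At an unadjusted p below 0.05, 3 were higher and 4 lower. DESeq2 gave no adjusted p to 12295 of the 15100 genes in non-induced cells. Its absence of calls, here and for the 37 genes, therefore adds little.

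**Figure D4:**
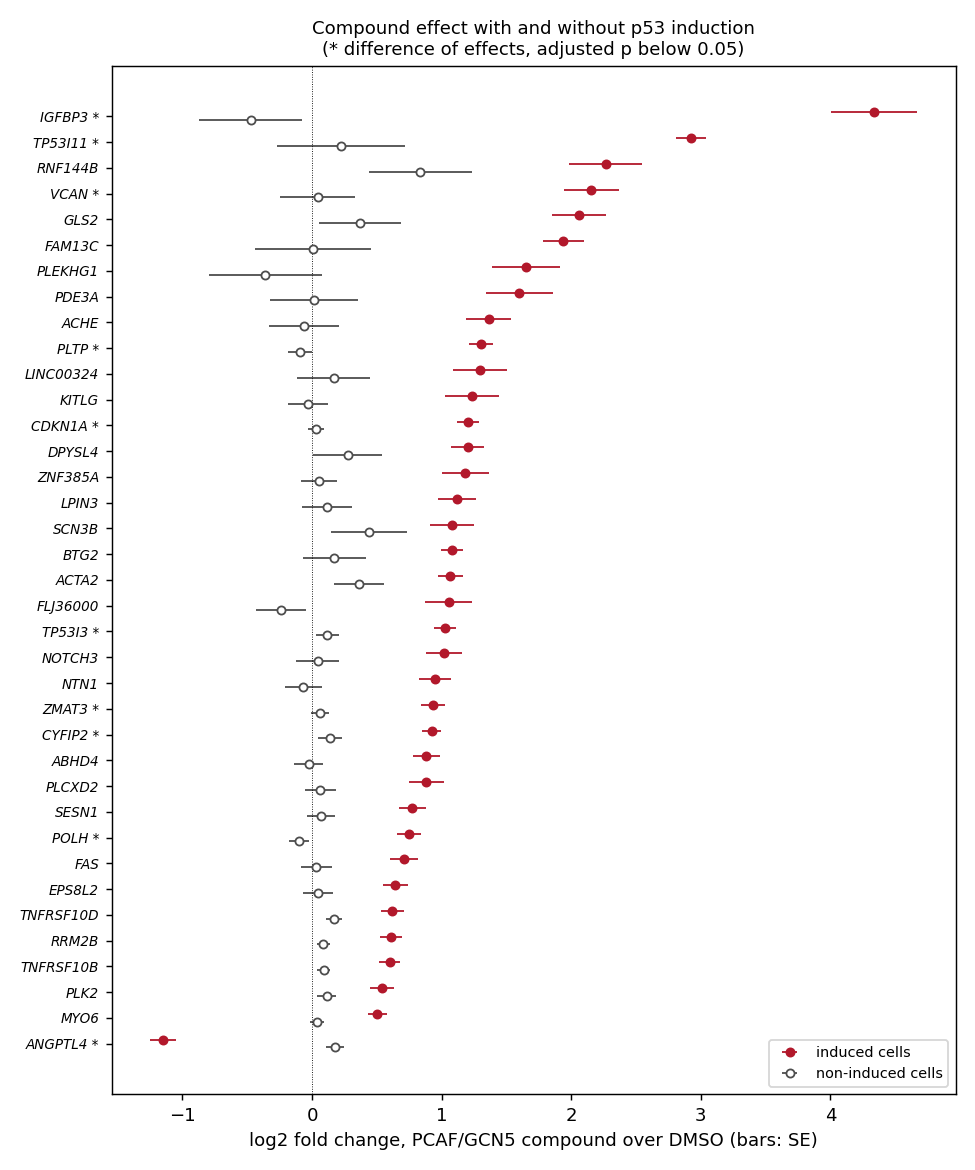
Log2 fold change (PCAF/GCN5 compound over DMSO, with SE bars) in induced cells (red, upper point of each pair) and non-induced cells (open grey, lower point) for the 37 called genes that could be tested in both. Induced values run from -1.15 (ANGPTL4) to 4.33 (IGFBP3), while non-induced values lie between -0.47 and 0.84; asterisks mark genes whose effects differ.

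The difference between the effects was tested directly, as the effect in induced minus that in non-induced cells. Of 15813 genes tested, 11 passed (0.0696%), 10 with a positive difference (0.0632%) and 1, ANGPTL4, with a negative one (0.00632%), and all 11 are among the 52, which were chosen on the same induced libraries. CDKN1A differed by 1.17 ± 0.10 (edgeR adjusted p = 2.7e-05), PLTP by 1.40 ± 0.12 (2.7e-05) and ANGPTL4 by -1.32 ± 0.12 (7.9e-05). IGFBP3, CYFIP2, ZMAT3, TP53I3, POLH, TP53I11 and VCAN were also among the 11. For the remaining 41 genes the difference did not pass, which does not show that the effects are alike; BTG2 differed by 0.89 with an edgeR adjusted p of 0.19.

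The 2 compounds were compared with each other in induced cells, PCAF/GCN5 minus p300/CBP, as applied and with no dose in the labels. Of 14983 genes tested 617 differed (4.12%), 337 higher (2.25%) and 280 lower (1.87%) with the PCAF/GCN5 compound. The 52 genes were chosen on the same PCAF/GCN5 libraries. Among them, 19 were lower and 5 higher with the PCAF/GCN5 compound, and 28 did not pass. Several p53 targets were far lower with it. CDKN1A had 829, 806 and 859 CPM with the PCAF/GCN5 compound, against 2332, 2451 and 2386 CPM with the p300/CBP compound (log2 difference -1.54 ± 0.05, edgeR adjusted p = 1.5e-11). TP53I3 had 160, 153 and 178 CPM with the PCAF/GCN5 compound, against 630, 635 and 633 CPM with the p300/CBP compound (-1.97 ± 0.06, edgeR adjusted p = 4.4e-12). TP53I11, DPYSL4, PLTP and FAS followed at -1.87, -1.76, -1.0 and -0.83. BBC3, which did not pass against DMSO, was also lower (log2 difference -0.94 ± 0.11), at 18.4, 12.9 and 17.1 CPM with the PCAF/GCN5 compound, against 30.7, 33.2 and 28.2 CPM with the p300/CBP compound.

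The 5 higher genes were ACTA2, DRAXIN, PLXNB3, NOTCH3 and ENSG00000265907. ACTA2 had 50.6, 50.9 and 55.6 CPM with the PCAF/GCN5 compound, against 28.7, 31.9 and 31.1 CPM with the p300/CBP compound (log2 difference 0.76 ± 0.07, edgeR adjusted p = 7.4e-06). DRAXIN had 6.03, 5.85 and 6.01 CPM with the PCAF/GCN5 compound, against 2.88, 2.96 and 2.32 CPM with the p300/CBP compound (1.12 ± 0.16, edgeR adjusted p = 0.00067). In both, all PCAF/GCN5 libraries exceed all p300/CBP libraries. ACTA2 and its overlapping neighbour FAS thus stood in opposite order between the compounds. For some genes where no difference passed, an approximate 95% interval of the log2 difference was formed from the SE and a normal quantile. It was -0.18 to 0.05 for BTG2, -0.36 to 0.15 for IGFBP3, -0.09 to 0.19 for MDM2 and -0.14 to 0.06 for MYO6. Such intervals are narrower than those that the F test would give. Mitosis genes were higher with the PCAF/GCN5 compound in 32 of 35 tested members and lower in none (median log2 difference 0.40), and S phase genes in 20 of 39 and 1 (median 0.32). TOP2A, a topoisomerase of dividing cells, had 234, 257 and 232 CPM with the PCAF/GCN5 compound, against 162, 153 and 165 CPM with the p300/CBP compound (0.57 ± 0.06, edgeR adjusted p = 1.3e-05).

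**Figure D5:**
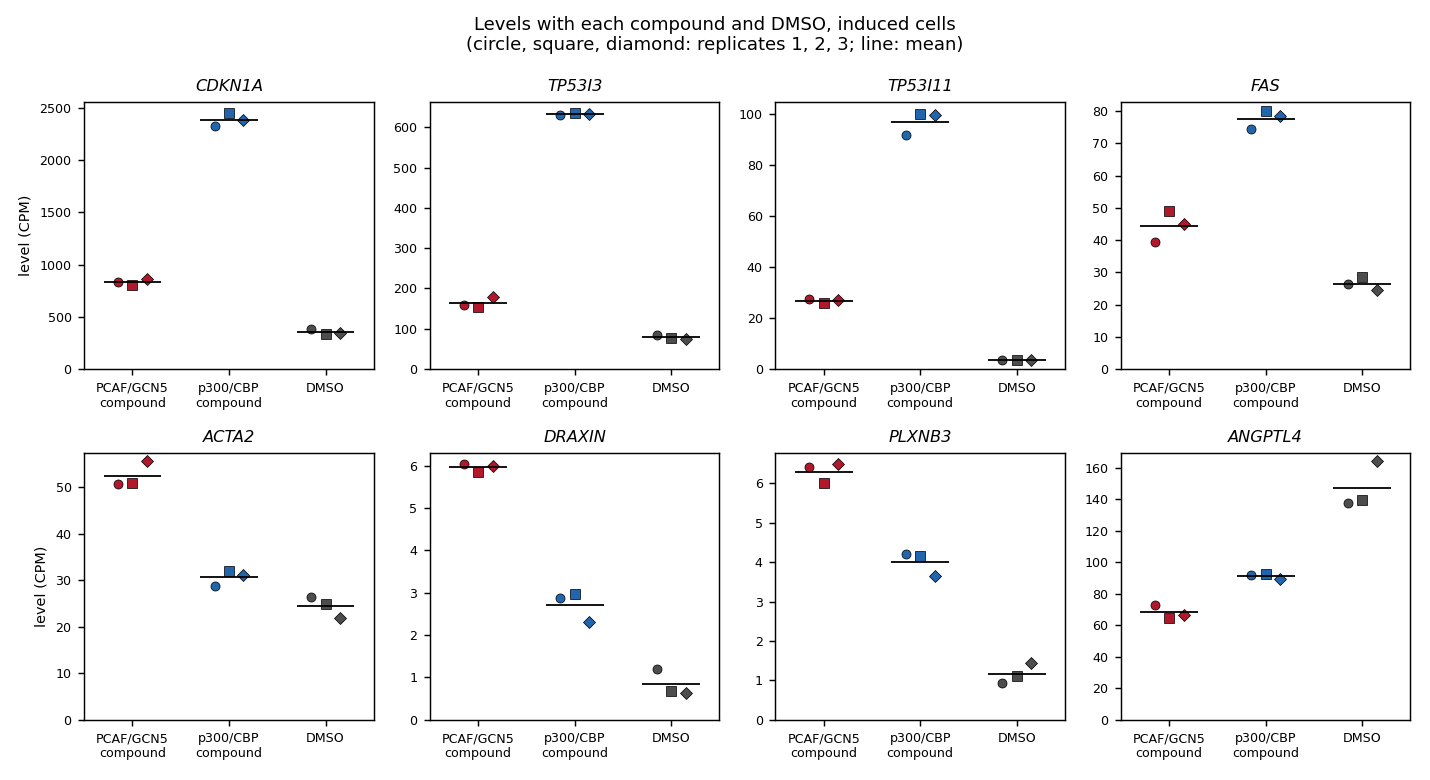
Level in CPM (vertical axes, from 0) in induced cells with the PCAF/GCN5 compound (red), the p300/CBP compound (blue) and DMSO (grey) for 8 genes picked after their values were seen, with lines at the mean of 3 libraries. CDKN1A, TP53I3, TP53I11 and FAS are highest with the p300/CBP compound, whereas ACTA2, DRAXIN and PLXNB3 are highest with the PCAF/GCN5 compound and ANGPTL4 is lowest with it.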

How the data were processed

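RNA was sequenced from 18 libraries in 6 groups of 3. Per the labels' protocols, libraries were made from total RNA with a directional kit. Per the submitters' processing notes, StringTie and DESeq2 were used, with no version given. The aligner, build and annotation are not given in the sources used here, but gene positions fell on GRCh38. Each of the 4 deposited tables holds raw counts per gene for 6 libraries, per the file headers, and these counts were used. The authors also deposited a normalised signal, a log2 fold change with its error, a p-value and an adjusted p-value, per the file headers. In the table of this comparison the authors' log2 value is DMSO over compound, so its sign was turned. ANK2, whose line is broken in 1 table, was left out, and 27 columns of per-sample values were not used. This left 60622 genes, of which 60294 identifiers matched current names.

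For each comparison a model was fitted in edgeR 4.0.16 (R 4.3.3), after TMM scaling and filterByExpr, with glmQLFit and a 2-sided quasi-likelihood F test, without covariates. Benjamini-Hochberg adjustment ran over all genes tested, with calls at an adjusted p under 0.05. The SE of a log2 fold change is its size over the square root of F. Levels are CPM, counts scaled to the library total. The fits were checked on 1 simulated data set each, in which no library was made to stand apart. The share of false calls was above the nominal share in each and highest without the third DMSO library. With 1 draw per fit, the spread of these shares is not known. DESeq2 1.42.0, limma 3.58.1, other scaling, no filter, the replicate number as a block, all groups in 1 fit and leaving out each library served as alternatives. Named genes are all those called, list members of smallest p or called with or without the third DMSO library, a fixed set (CDKN1A, MDM2, TP53I3, TP53I11, BBC3, BAX, FAS, EP300, CREBBP, KAT2A, KAT2B, FKBP1A, ANGPTL4, IGFBP3) and the 10 of smallest p in each direction of the other comparisons, and some items under this rule are not reported here. The libraries, gene lists and tests were chosen with earlier results of these data known.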

Additional observations from a re-analysis of the deposited data

Results flagged for a closer look

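In 11 genes the effect of the PCAF/GCN5 compound on log2 levels differed between induced and non-induced cells by a direct test (edgeR interaction term, adjusted p below 0.05 over 15813 genes). The difference, induced minus non-induced, was 4.83 for IGFBP3, 2.69 for TP53I11, 2.12 for VCAN, 1.40 for PLTP and 1.17 for CDKN1A. It was 0.91 for TP53I3, 0.87 for ZMAT3, 0.85 for POLH and 0.79 for CYFIP2. ANGPTL4 had the opposite sign, -1.32. Of the genes named here, IGFBP3, CYFIP2, TP53I11, TP53I3, POLH, ZMAT3, PLTP and CDKN1A stand on the p53 lists, while VCAN and ANGPTL4 do not.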

How the results depend on the processing

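All 52 genes called were also called with DESeq2, limma-voom with sample weights, robust spread, other scaling, no filter and all 6 groups in 1 fit. The count of calls moved far more: 541 with no filter (192 higher, 349 lower), 128 with DESeq2 (118 and 10), 193 with voom (169 and 24) and 352 with all groups (228 and 124). Chosen after the data were seen, DESeq2 without the third DMSO library gave 147 (131 and 16), and no filter without it 306 (190 and 116). With no filter edgeR set no limit on how far each gene's spread was drawn to the trend, and it tested 30777 genes in place of 15078. The cause of any of these shifts was not tested. Leaving out 1 library gave 29 to 114 calls, 28 to 110 higher and 1 to 4 lower: 30, 31 and 29 without compound library 1, 2 or 3, and 114 without the third DMSO library. In every fit named here 26 genes were called. CDKN1A, TP53I11 and POLH are among them, and FAS, TNFRSF10B, TNFRSF10D, SESN1 and RRM2B are not.

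The replicate block gave 71 calls (66 higher, 5 lower), lost PDE3A and gave 14 calls in non-induced cells. Libraries of the same number deviated together with r = -0.012, 0.123 and 0.103 over 15078 genes, and those of unlike number with r from -0.127 to 0.058. The labels do not say that the number marks a shared culture, so the numbers were not taken as pairs. p53 list members that rose, 21, became 40 with no filter, 34 with DESeq2, 47 with voom, 47 with all groups, 13 to 39 leaving out 1 library (13 without the third compound library, 39 without the third DMSO library), and 47 and 51 in the additional fits with DESeq2 and with no filter.

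The difference between states, 11 calls, became 258 with no filter, 49 with DESeq2 and 8 to 24 leaving out 1 library (18 without DMSO library 1, 24 without DMSO library 3, both induced). The compounds differed in 236 to 1098 genes leaving out 1 library, 1098 without the second PCAF/GCN5 library and 309, 254 and 236 without p300/CBP library 1, 2 or 3. Non-induced calls, 3, became 48 with no filter and 0 to 17 leaving out 1 library, 17 without compound library 1. The log2 fold change of BBC3, not called, ranged from -0.0470 to 0.216 leaving out 1 library and turned negative without compound library 1 and without DMSO library 2 (-0.00126).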

Other observations

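Cell cycle genes were also slightly lower with the compound where p53 was not induced. In non-induced cells the median log2 fold change was -0.14 for S phase and replication genes and -0.15 for mitosis genes, beside -0.26 and -0.14 in induced cells. No member of either list was called in non-induced cells by edgeR or DESeq2, though DESeq2 gave no adjusted p to 12295 of 15100 genes there. At an unadjusted p below 0.05, 20 of 39 and 25 of 35 were lower, and none was higher. Over all genes tested there, 959 of 15100 had such a p in either direction. MCM2, a helicase subunit, had 183, 212 and 209 CPM with the compound, against 232, 238 and 237 CPM with DMSO in non-induced cells (log2 fold change -0.24 ± 0.06, edgeR adjusted p = 0.77). In induced cells it had 87.8, 72.7 and 66.1 CPM with the compound, against 99.2, 98.2 and 112 CPM with DMSO (-0.48 ± 0.12, edgeR adjusted p = 0.25). The groups do not overlap in either state. CDC20, an activator of the anaphase complex, had 153, 190 and 181 CPM with the compound, against 209, 211 and 207 CPM with DMSO in non-induced cells.

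Mitochondrially encoded transcripts depended on the third DMSO library. Their median log2 fold change was 0.25 with it and -0.09 without it, and that library's median log2 level lay -1.55 from its partners. None of the 15 passed in edgeR or DESeq2, nor at an unadjusted p below 0.05.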
